A study of Mus musculus with 19 samples.

Results

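The response described here is the mean change with palmitoleic acid (PMA), stearic acid (SA) and oleic acid (OA) in differentiated 3T3-L1 cells. Palmitic acid (PA) was kept aside for comparison. This mean is called the shared response below, but a gene can pass without a change in each acid, as B3galt2 did at -0.03 in PMA. For each gene, the means of the PMA, SA and OA groups were averaged and the mean of the control group was subtracted. This used 15 of the 19 arrays, 11 of acid-treated cells (4 PMA, 4 SA and 3 OA) and 4 of control cells, and the 4 PA arrays entered the fit only through the estimate of spread. 3T3-L1 is a mouse fibroblast line that turns into fat cells under a hormone cocktail, so all arrays come from a single cell line and not from animals. All cells were differentiated, moved to serum-free medium with insulin on day 7, and then held from day 8 for 48 h in medium with 2% albumin. PMA (16 carbons, 1 double bond), SA (18 carbons, 0 double bonds), OA (18 carbons, 1 double bond) and PA (16 carbons, 0 double bonds) were each given at 250 µM from ethanol stocks, and control cells received albumin and the same dilution of ethanol with no fatty acid. The labels call the samples of a group biological replicates and do not say whether they were cultured on separate days.

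Fatty acids reach a fat cell bound to albumin, are taken up, activated to acyl-CoA and then stored in triglyceride droplets, built into membranes or oxidised. They are also signals: the nuclear receptors of the PPAR family bind fatty acids, and PPAR targets include droplet coat proteins and oxidation enzymes. Saturated and unsaturated acids are known for different effects on inflammatory and stress signalling in many cell types. Growing and maturing fat cells also remodel the collagen and proteoglycan matrix around them.

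Across 18820 genes, 230 (1.22%) passed limma's moderated test at an adjusted p of 0.05, 155 higher (0.824%) and 75 lower (0.399%) with the acids, and 2763 had an unadjusted p under 0.05. The changes were small. The median size among the 230 was 0.23 on the log2 scale, 68 of them were under 0.2, and 4 exceeded 1.5-fold: the small Cajal body RNA Scarna13 and the matrix proteoglycan Fmod rose, and the transcription factor Egr1 and the secreted protein Lcn2 fell. The direction of the balance depended on how arrays were scaled to each other: after cyclic loess between arrays there were 105 rises and 244 falls, a share of rises of 30.1% against 67.4% with the values as deposited. Of the deposited-scale calls, 98 rises and all 75 falls passed again after cyclic loess. Called genes were brighter than most: the median level was 8.20 for rises and 8.71 for falls, against 5.97 for all genes. The shares of gene lists below are set beside all genes, dim ones included, and are not adjusted for expression level. The lists were written with earlier results of these data known. A share above that of all genes can thus be partly built in, and the shares are descriptions.

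The count also rested on single arrays. It was 32 without control replicate 4, 41 without control replicate 1, 58 without control replicate 3 and 122 without control replicate 2, and it was 117 without OA replicate 1, 119 without OA replicate 3, 128 without SA replicate 1, 145 without SA replicate 2 and 149 without PMA replicate 4. It was 458 without PA replicate 2, which touches only the estimate of spread. Without the whole OA group it was 40, 24 higher and 16 lower, against 234 without PMA and 232 without SA. By contrast 21 genes passed whichever of the 19 arrays was left out, and 83 of the 230 passed in fewer than 10 of those fits. Where a lost call is given below, the array named is the one whose omission gave the highest adjusted p, and omitting others could end the call too. These checks of single genes cover the shared response only. For PA against the other acids only the count of genes was followed, so the adjusted p of a single gene there is unchecked. The 7 rises among the 21 were Fmod, Clk1, Cpe, P4ha3, Armcx2, Arl14ep and Stat5a. The 14 falls were Egr1, Lcn2, Znfx1, Sap30, Rpa3, Gm10548, Med21, Lsm7, Immp1l, Rps24, Sec61g, Naa20, Ciart and Cnih4. Of these, Armcx2, Arl14ep, Immp1l, Sec61g, Naa20, Ciart and Cnih4 lie outside the naming rule and were picked out after their values were seen.

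**Figure D1:**
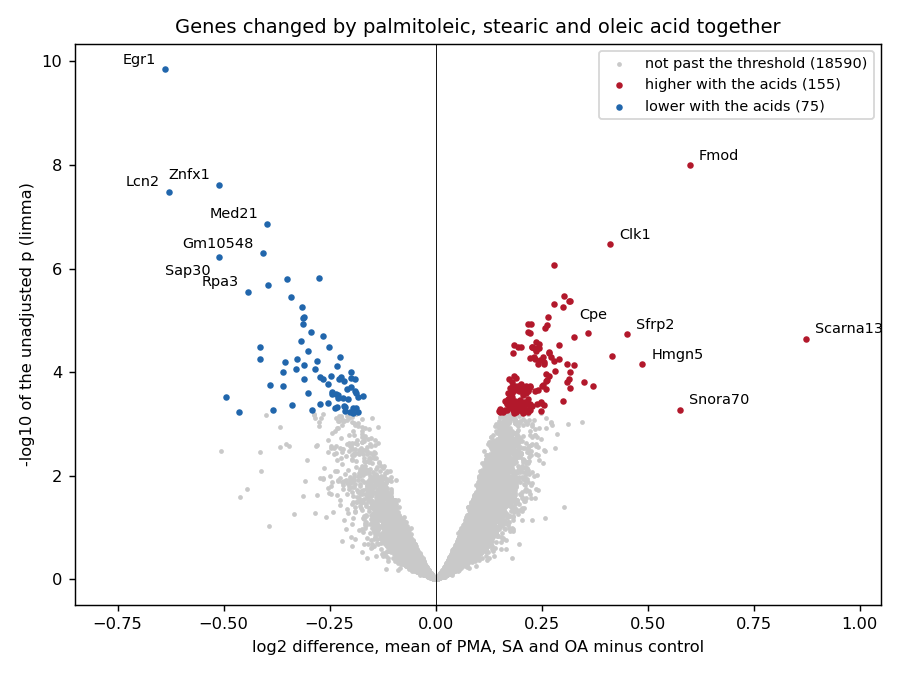
Each point is 1 of 18820 genes, with the log2 difference (mean of PMA, SA and OA minus control) on the horizontal axis and the negative log10 of limma's unadjusted p on the vertical axis. The 155 genes that rose are red and the 75 that fell are blue. Egr1 stands highest at a difference of -0.64, and Scarna13 lies farthest to the right at 0.87.

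**Figure D2:**
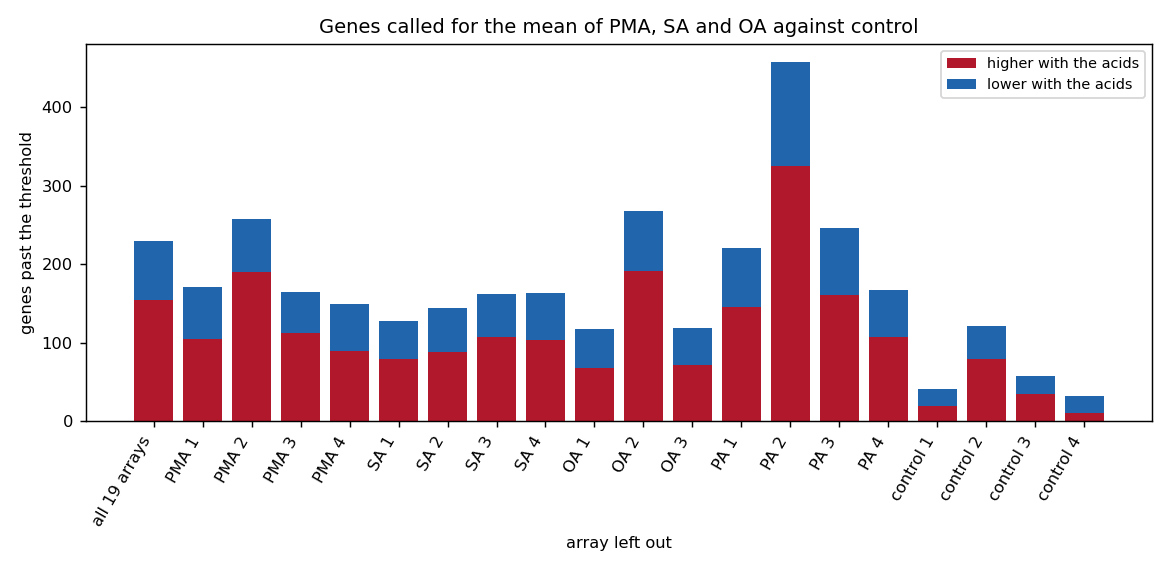
The bars count genes past the threshold, rises in red and falls in blue, with all 19 arrays and with each named array left out. The 4 bars for the control arrays are among the lowest, from 32 to 122 genes, against 230 with all arrays.

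Egr1, an immediate early transcription factor induced by growth factor signalling, gave the smallest adjusted p of all genes. Its log2 expression was 7.95, 7.67, 7.73 and 7.73 in the PMA arrays, 7.79, 7.75, 7.64 and 7.79 in the SA arrays, 7.58, 7.60 and 7.62 in the OA arrays, 8.46, 8.53, 8.27 and 8.33 in the PA arrays, and 8.44, 8.24, 8.32 and 8.37 in the control arrays. All 11 arrays of PMA, SA and OA lay below all 4 control arrays, while the PA arrays overlapped the control arrays. The shared change was -0.64 ± 0.06 (SE, adjusted p = 2.7e-06), made of -0.57 with PMA, -0.60 with SA and -0.74 with OA, against 0.05 with PA. PA lay 0.69 above the mean of the other acids (adjusted p = 5.97e-07), a difference into which the control arrays enter only through the estimate of spread.

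Among the 27 measured immediate early genes, Egr1 and Ier2 fell and none rose (7.41%, against 1.22% of all genes in either direction), with a list median of -0.05 against 0.03 for all genes. After cyclic loess 5 fell and none rose. Ier2, a further early response gene, averaged 6.18 with the acids and 6.52 in control cells, a change of -0.34 ± 0.08 (SE, adjusted p = 0.0438), and its call held in 5 of the 19 fits that left out 1 array. The other 25 did not pass, Fos at -0.25 and Jun at 0.15 among them. None of 19 feedback genes of the ERK pathway, which drives Egr1 in many cells, passed, whereas after cyclic loess 3 fell. Their lowest value was Dusp6, a phosphatase acting on ERK, at -0.19 (adjusted p = 0.069, and 0.0234 after cyclic loess), with -0.05 in PMA, -0.25 in SA, -0.29 in OA and 0.16 in PA. For Dusp6, PA lay 0.36 above the mean of the other acids (adjusted p = 0.00113).

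Lcn2 encodes lipocalin-2, a secreted iron-siderophore binding protein of the acute phase that adipocytes also make. It measured 8.99, 8.76, 8.83 and 9.02 in the PMA arrays, 8.53, 8.56, 8.39 and 8.34 in the SA arrays, 8.12, 7.96 and 8.13 in the OA arrays, 8.85, 8.73, 9.02 and 8.82 in the PA arrays, and 9.31, 9.19, 8.81 and 9.11 in the control arrays. The SA and OA arrays all lay below every control array, whereas the PMA arrays overlapped them. The shared fall was -0.63 ± 0.07 (SE, adjusted p = 0.000155), and the acids differed among themselves, with -0.21 in PMA, -0.65 in SA and -1.04 in OA (moderated F test, adjusted p = 0.000782). PA stood at -0.25. With the 11 acid arrays taken as 1 group, so that differences between the acids enter the spread, Lcn2 missed the threshold (adjusted p = 0.0598).

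Of 37 cytokine, chemokine and acute phase genes, 2 fell (Lcn2 and Ccl7) and 2 rose (Ptx3 and Cxcl12), 10.8% of the list against 1.22% of all genes, and after cyclic loess 5 fell and none rose. Ccl7, a chemokine for monocytes, changed by -0.29 ± 0.05 (SE, adjusted p = 0.0105), with -0.47 in PMA, -0.10 in SA and -0.31 in OA, and these differed (F test, adjusted p = 0.0204). Ptx3, a pentraxin of innate immunity, rose by 0.30 (adjusted p = 0.0413), by 0.30, 0.29 and 0.32 in PMA, SA and OA against 0.13 in PA. Cxcl12, a chemokine for stem and progenitor cells, rose by 0.18 (adjusted p = 0.0258), with 0.21 in PMA, 0.06 in SA, 0.28 in OA and -0.05 in PA. Without control replicate 4 the Ptx3, Cxcl12 and Ccl7 calls were lost, at adjusted p of 0.21, 0.14 and 0.089. None of 24 genes of the NF-kB and Toll-like receptor pathway passed. Ccl2 and Il6 did not pass either, at -0.08 and -0.18.

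**Figure D3:**
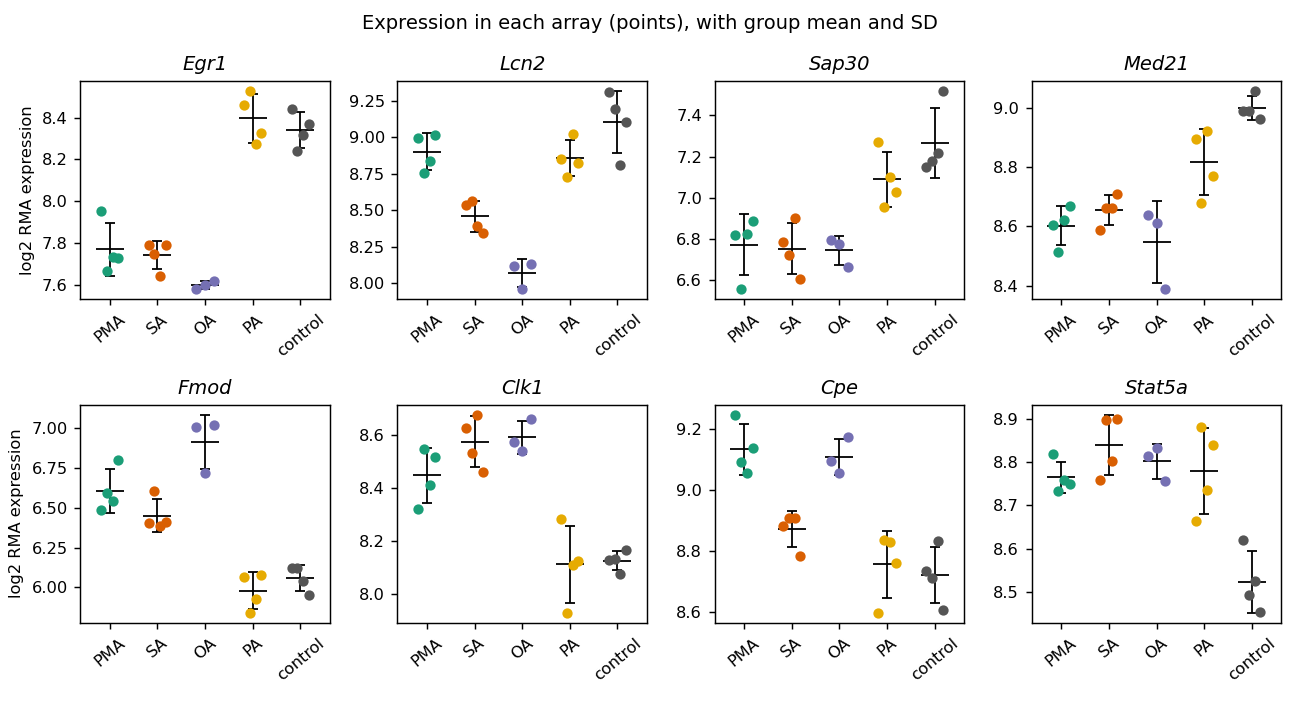
Log2 RMA expression of 8 genes is shown with 1 point per array for PMA, SA, OA, PA and control cells, and black bars give group means and SD. Egr1 is below 8 in every PMA, SA and OA array and above 8.2 in every PA and control array, whereas the Stat5a values of the PA arrays overlap those of the other acids.

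Of 32 interferon-stimulated genes, Znfx1 and Ifi27l2a fell and none rose (6.25%, against 1.22% of all genes). Znfx1, a helicase-like sensor of viral RNA, ranged from 8.55 to 9.10 with a median of 8.66 in the 11 acid arrays, from 9.18 to 9.38 in the PA arrays and from 9.20 to 9.23 in the control arrays. The acid arrays did not overlap the control arrays. Its change was -0.51 ± 0.06 (SE, adjusted p = 0.000151), with -0.57 in PMA, -0.32 in SA, -0.64 in OA and 0.05 in PA. A different probe set of Znfx1 moved the other way, at 0.09 (unadjusted p = 0.027), so the gene's direction is uncertain. Ifi27l2a, an interferon-induced protein, changed by -0.42 ± 0.08 (SE, adjusted p = 0.0161), with -0.40 in PMA, -0.25 in SA, -0.60 in OA and 0.03 in PA. Its call was lost without control replicate 1 (adjusted p = 0.089).

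The extracellular matrix supplied several of the rises. Fmod, fibromodulin, a small leucine-rich proteoglycan that binds collagen fibrils, measured 6.49, 6.59, 6.54 and 6.80 in the PMA arrays, 6.40, 6.61, 6.38 and 6.41 in the SA arrays, 7.01, 6.72 and 7.02 in the OA arrays, 6.07, 5.84, 5.93 and 6.08 in the PA arrays, and 6.12, 6.12, 6.04 and 5.95 in the control arrays. Every PMA, SA and OA array exceeded every control and PA array. Fmod rose by 0.60 ± 0.07 (SE, adjusted p = 9.62e-05), by 0.55 in PMA, 0.39 in SA and 0.86 in OA, and these differed (F test, adjusted p = 0.0434). PA stood at -0.08, which was 0.68 below the mean of the other acids (adjusted p = 5.46e-06).

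Ogn, osteoglycin, of the same proteoglycan family, rose by 0.33 ± 0.07 (SE, adjusted p = 0.0179), by 0.26 in PMA, 0.16 in SA and 0.56 in OA, while PA stood at -0.36 and lay 0.68 below the other acids (adjusted p = 5.46e-06). Its call in the shared response was lost without control replicate 4 (adjusted p = 0.15). Fmod and Ogn were the only 2 of 15 measured small leucine-rich proteoglycans to pass (13.3%, against 1.22% of all genes). P4ha3, a collagen prolyl hydroxylase subunit, ranged from 7.41 to 7.80 in the 11 acid arrays, from 6.94 to 7.06 in the PA arrays and from 7.11 to 7.30 in the control arrays, without overlap of the acid and control arrays. P4ha3 rose by 0.31 ± 0.05 (SE, adjusted p = 0.00478), by 0.27 in PMA, 0.25 in SA and 0.43 in OA, and PA at -0.23 lay 0.54 below the other acids (adjusted p = 5.46e-06).

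Of 41 matrix and crosslinking genes, 4 rose and none fell (9.76%, against 1.22% of all genes), with a median of 0.10 against 0.03 for all genes, and after cyclic loess 2 rose. The list was brightly expressed, with a median level of 9.95 against 5.97 for all genes. The collagen chain Col6a1 rose by 0.18 ± 0.04 (SE, adjusted p = 0.0129). The collagen crosslinking enzyme Lox, the fibrillar collagen chain Col1a1 and the matricellular protein Thbs2 rose by 0.21, 0.19 and 0.17 (adjusted p = 0.0459, 0.0413 and 0.0423). In PMA, SA, OA and PA, Lox stood at 0.08, 0.23, 0.32 and -0.04, Col1a1 at 0.26, 0.12, 0.19 and 0.16, and Thbs2 at 0.19, 0.08, 0.23 and -0.03. These 4 calls rested on the control arrays: Lox and Col6a1 were lost without control replicate 1 (adjusted p = 0.16 and 0.065), and Col1a1 and Thbs2 without control replicate 4 (adjusted p = 0.19 and 0.17).

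Of 20 matrix proteases and inhibitors, the aggrecanase Adamts5 and its relative Adamts12 rose by 0.20 and 0.17 (adjusted p = 0.0321 and 0.0443), and the stromelysin Mmp11 fell by 0.23 (adjusted p = 0.0391), together 15% of the list against 1.22% of all genes. Mmp11 differed between the acids, with 0.01 in PMA, -0.31 in SA and -0.39 in OA, against 0.04 in PA (F test, adjusted p = 0.0135). Outside the lists, Plat, tissue plasminogen activator, rose by 0.32 ± 0.07 (SE, adjusted p = 0.0314), with 0.37 in PMA, 0.15 in SA, 0.44 in OA and 0.01 in PA. Without control replicate 4 Adamts5, Adamts12 and Mmp11 did not pass (adjusted p = 0.17, 0.23 and 0.21), nor did Plat without control replicate 1 (adjusted p = 0.14).

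Sfrp2, a secreted Wnt modulator, rose by 0.45 ± 0.08 (SE, adjusted p = 0.0106), with 0.50 in PMA, 0.23 in SA, 0.63 in OA and -0.17 in PA, and PA lay 0.62 below the other acids (adjusted p = 0.000301). It was the only one of 26 secreted Wnt modulators and Wnt targets to pass (3.85%, against 1.22% of all genes), and it missed the threshold without control replicate 4 (adjusted p = 0.094). Cpe, carboxypeptidase E, which trims prohormones, ranged from 8.78 to 9.25 with a median of 9.05 in the 11 acid arrays, from 8.60 to 8.84 in the PA arrays and from 8.61 to 8.83 in the control arrays. One SA array lay inside the control range. Cpe rose by 0.32 ± 0.05 (SE, adjusted p = 0.00478), with 0.41 in PMA, 0.15 in SA, 0.39 in OA and 0.03 in PA.

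The signalling receptor Adgrg6, an adhesion G protein-coupled receptor, rose by 0.42 ± 0.08 (SE, adjusted p = 0.0161), with 0.35 in PMA, 0.34 in SA, 0.55 in OA and -0.08 in PA. Sema3c, a secreted semaphorin, rose by 0.24 ± 0.05 (SE, adjusted p = 0.0129), with 0.27 in PMA, 0.12 in SA, 0.34 in OA and -0.14 in PA, and PA lay 0.39 below the other acids (adjusted p = 0.000113). Neither call held without control replicate 4 (adjusted p = 0.095 and 0.089).

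**Figure D4:**
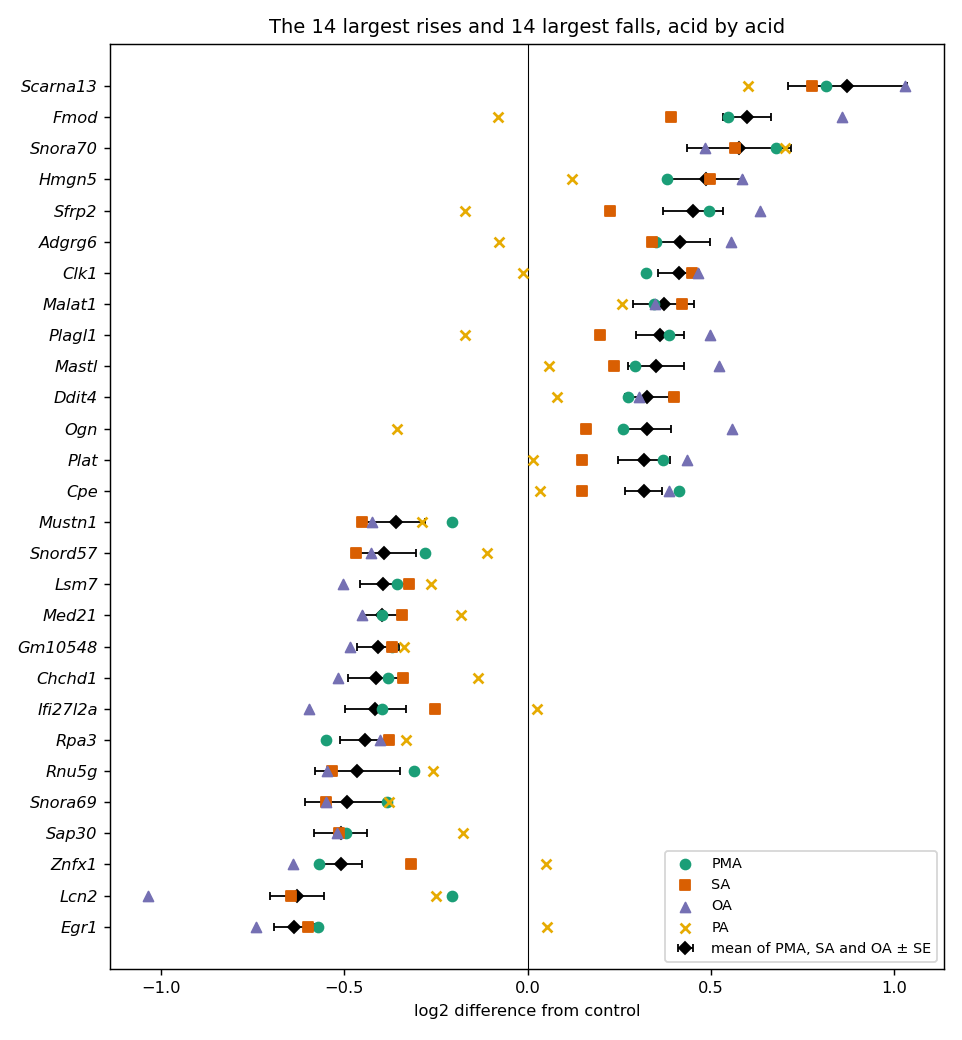
The log2 difference from control is given for the called genes with the biggest changes, 14 rises and 14 falls, with PMA, SA, OA and PA as coloured symbols and the mean of PMA, SA and OA as black diamonds with SE. Egr1, Znfx1, Fmod, Clk1 and Sfrp2 have PA near or past 0 on the far side from the other acids, whereas Scarna13, Snora70, Malat1 and Gm10548 have PA on the same side.

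The cells expressed fat cell genes strongly: 9 of 9 measured adipocyte markers lay above the median gene, against 1 of 6 macrophage and 0 of 4 endothelial markers. All 7 measured preadipocyte and fibroblast markers lay above it too, so this trait was not particular to the fat cell markers. The median level was 11.82 for the adipocyte markers and 10.73 for the preadipocyte and fibroblast markers. The summed log2 level of the adipocyte markers was 102.8 to 104 in the 11 acid arrays and 102.9 to 103.1 in the control arrays. That of 7 preadipocyte and fibroblast markers was 74.73 to 75.88 in the acid arrays and 74.33 to 74.71 in the control arrays, a narrow gap in the values as deposited. Of the 7, Dlk1 and Col1a1 rose, against 0.824% of all genes, and neither passed after cyclic loess (adjusted p = 0.059 and 0.068). The others did not pass: Pdgfra stood at 0.12, Col3a1 at 0.10, Pdgfrb at 0.02, Fn1 at 0.02 and Thy1 at 0.00, where the median of all genes was 0.03. The part of this marker sum in the matrix rises was not tested. In bulk RNA, more cells of a type and more RNA per cell cannot be told apart.

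Dlk1, a preadipocyte membrane protein that restrains adipogenesis, rose by 0.21 ± 0.05 (SE, adjusted p = 0.0337), with 0.26 in PMA, 0.16 in SA, 0.22 in OA and 0.03 in PA. Zfp521, a zinc finger protein that opposes adipogenesis, rose by 0.21 (adjusted p = 0.0355), with 0.16 in PMA, 0.19 in SA, 0.27 in OA and 0.01 in PA. Neither passed without control replicate 4 (adjusted p = 0.19 and 0.18).

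Of 21 adipogenic transcription factors, 3 rose and none fell (14.3%, against 1.22% of all genes), and after cyclic loess 2 rose. Stat5a, a signal transducer that promotes adipogenesis, ranged from 8.73 to 8.90 in the 11 acid arrays, from 8.66 to 8.88 in the PA arrays and from 8.45 to 8.62 in the control arrays, and the acid and control arrays did not overlap. It rose by 0.28 ± 0.05 (SE, adjusted p = 0.00504), by 0.24 in PMA, 0.32 in SA and 0.28 in OA, with 0.26 in PA. The Krüppel-like factor Klf9 rose by 0.26 and the retinoid X receptor Rxrg by 0.22 (adjusted p = 0.0278 and 0.0391), with 0.16 and 0.04 in PA. Both were lost without control replicate 4 (adjusted p = 0.15 each). A different, dimmer probe set of Klf9 stood at 0.13 (limma, unadjusted p = 0.26), and Klf9 did not pass with the mean of its probe sets (adjusted p = 0.154). The regulators Pparg at 0.10 and Cebpa at 0.11 did not pass.

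Of 27 triglyceride synthesis, storage and lipolysis genes, 2 rose and none fell (7.41%, against 1.22% of all genes), and after cyclic loess 3 rose. The same 2, Plin1 and Cidea, were the called genes among 22 adipocyte markers (9.09%). The droplet coat protein Plin1 rose by 0.18 ± 0.04 (SE, adjusted p = 0.0147), by 0.16 in PMA, 0.20 in SA and 0.19 in OA, with 0.08 in PA. Cidea, a droplet fusion protein abundant in brown fat, rose by 0.31 ± 0.07 (SE, adjusted p = 0.0265), by 0.20 in PMA, 0.31 in SA and 0.43 in OA, with 0.03 in PA. It averaged 5.93 with the acids and 5.61 in control cells, where the median gene of the array stood at 5.97. Both calls were lost without control replicate 4 (adjusted p = 0.096 and 0.12). Cidea was the only one of 17 thermogenic genes to pass (5.88%, against 1.22% of all genes).

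Of 28 PPAR targets 1 rose, Plin1 (3.57%, against 1.22% of all genes), and after cyclic loess 2 rose. Plin2, Angptl4, Pdk4, Cd36, Fabp4 and Cpt1a did not pass. Plin2, a droplet coat protein that many cells raise when loaded with fat, averaged 11.65 with the acids and 11.66 in control cells, a difference of -0.02 with a 95% interval from -0.09 to 0.06. Angptl4, a secreted inhibitor of lipoprotein lipase, differed by 0.03 (-0.06 to 0.12), and Pdk4, which holds back glucose oxidation, by -0.08 (-0.23 to 0.06). The fatty acid translocase Cd36 differed by -0.00 (-0.10 to 0.09) and the fatty acid carrier Fabp4 by -0.04 (-0.13 to 0.05). Cpt1a, the gate of mitochondrial fatty acid entry, stood at 0.16 (0.07 to 0.25, adjusted p = 0.0578), with 0.17 in PMA, 0.15 in SA, 0.17 in OA and -0.04 in PA, and PA lay 0.21 below the other acids (adjusted p = 0.0117).

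Of 21 mitochondrial fatty acid oxidation genes 1 rose (4.76%, against 1.22% of all genes), the carnitine acetyltransferase Crat, by 0.18 (adjusted p = 0.0286). Of 21 cholesterol genes 1 rose (4.76%), the synthesis enzyme Sqle, by 0.21 (adjusted p = 0.0306). Of 26 sphingolipid genes 1 rose (3.85%), the ceramidase Asah2, by 0.21 (adjusted p = 0.0438). In PA, Crat stood at 0.08, Sqle at 0.07 and Asah2 at 0.18. Without control replicate 4 none of these 3 passed (adjusted p = 0.11, 0.18 and 0.21). None of 19 lipogenic genes, 22 desaturases and elongases, 19 uptake and activation genes, 20 peroxisomal oxidation genes, 15 sterol efflux genes or 30 insulin and glucose genes passed. After cyclic loess 1 desaturase or elongase gene fell, and the other 5 of these lists again had no call. Scd1, the main desaturase, stood at 0.04 (-0.04 to 0.12) and the fatty acid synthase Fasn at 0.08 (-0.01 to 0.16).

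**Figure D5:**
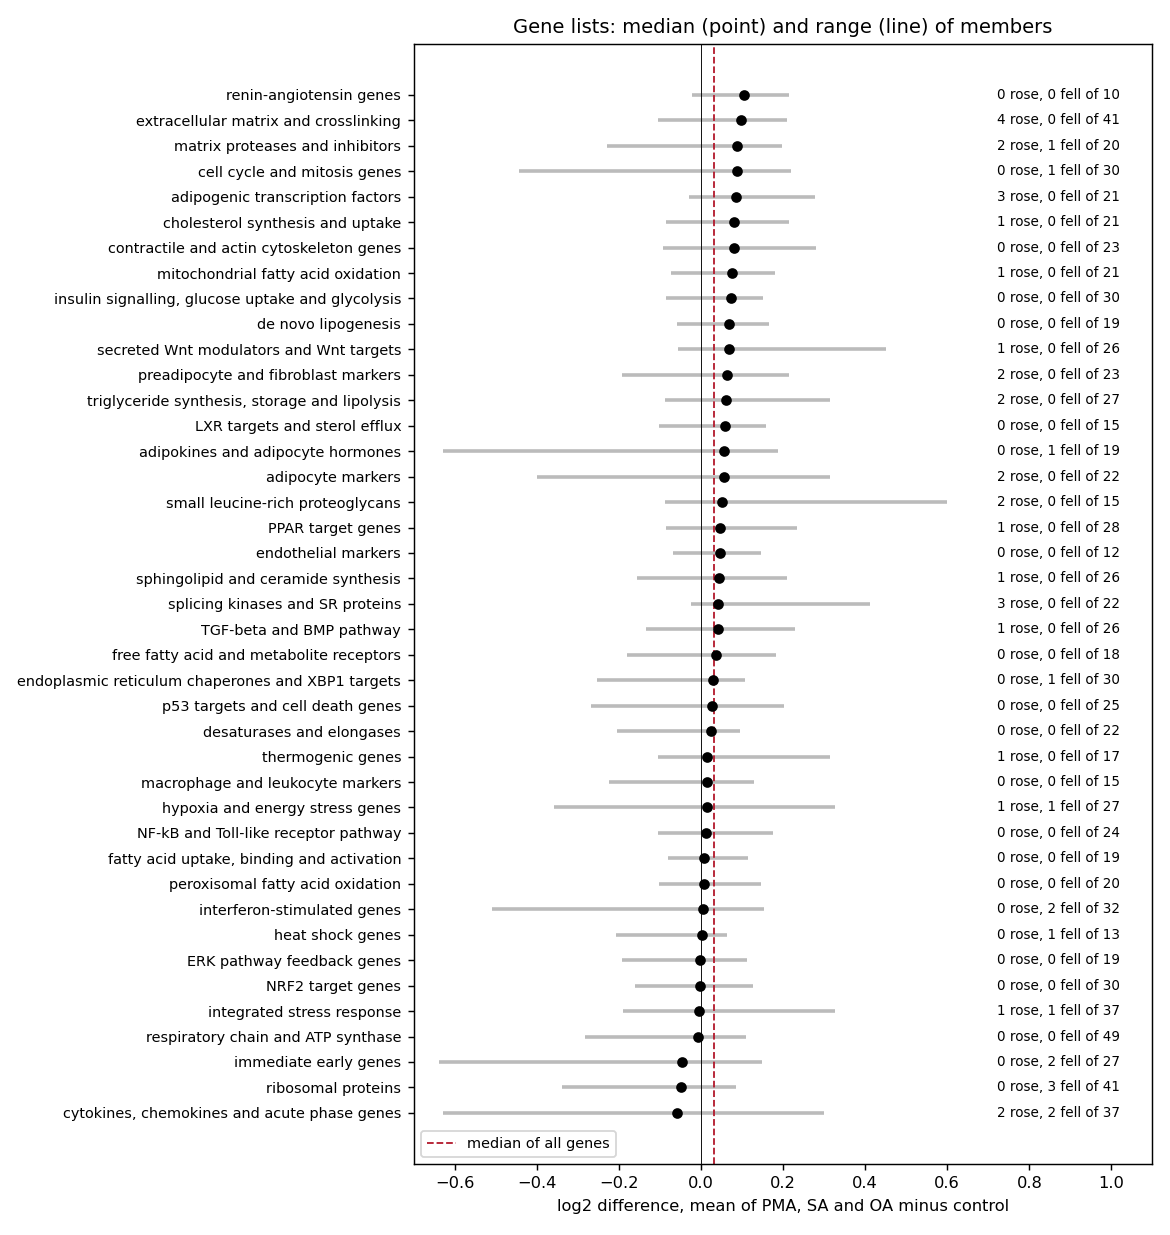
For each of 41 gene lists, the point is the median and the line the range of the members' log2 differences (mean of PMA, SA and OA minus control), with the number that rose and fell of those measured at the right. The dashed line is the median of all genes, 0.03. The medians run from -0.06 for cytokines, chemokines and acute phase genes to 0.10 for renin-angiotensin genes.

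Clk1, a kinase of splicing factors, ranged from 8.32 to 8.68 with a median of 8.54 in the 11 acid arrays, from 7.93 to 8.28 in the PA arrays and from 8.08 to 8.16 in the control arrays. The acid arrays lay above all PA and control arrays. Clk1 rose by 0.41 ± 0.06 (SE, adjusted p = 0.00107), by 0.32 in PMA, 0.45 in SA and 0.47 in OA, while PA stood at -0.01 and 0.43 below the other acids (adjusted p = 0.000301). Of 22 splicing kinases, splicing factors and nuclear speckle RNAs, 3 rose and none fell (13.6%, against 1.22% of all genes), and after cyclic loess 2 rose. Malat1, a long nuclear RNA of the speckles, rose by 0.37 ± 0.08 (SE, adjusted p = 0.0306), with 0.26 in PA, and the helicase Ddx5 rose by 0.18 (adjusted p = 0.0337), with 0.07 in PA. Malat1 and Ddx5 did not pass without control replicate 4 (adjusted p = 0.18 and 0.22). A different probe set of Ddx5 stood at 0.075 (limma, unadjusted p = 0.14).

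Of 59 measured small nucleolar and Cajal body RNAs, a class formed after the values were seen, 2 rose and 2 fell (6.78%, against 1.22% of all genes), and the others did not pass. Scarna13, which guides modification of spliceosomal RNA, ranged from 7.30 to 8.49 in the 11 acid arrays, from 7.35 to 8.29 in the PA arrays and from 7.06 to 7.27 in the control arrays. It rose by 0.87 ± 0.16 (SE, adjusted p = 0.0118), by 0.81 in PMA, 0.78 in SA and 1.03 in OA, with 0.60 in PA. Snora70 rose by 0.58 with 0.70 in PA, whereas Snora69 fell by 0.49, Snord57 by 0.39 and the spliceosomal RNA Rnu5g by 0.46 (adjusted p = 0.0479, 0.0381, 0.0306 and 0.0495), and in PA these 3 stood at -0.38, -0.11 and -0.26. Of these 5, only Scarna13 had acid and control arrays that did not overlap. Rnu5g was dim, from 2.94 to 3.56 in the acid arrays and from 3.28 to 4.04 in the control arrays. The lower quartile of all genes was 4.55, so its fall is a change near the floor of the array. Snora70 lost its call without control replicate 1 (adjusted p = 0.21), and the others lost theirs without control replicate 4 (adjusted p = 0.067 for Scarna13, 0.21, 0.18 and 0.23).

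Among chromatin and growth regulators, Hmgn5, a nucleosome-binding protein, rose by 0.49 ± 0.10 (SE, adjusted p = 0.0179), with 0.38 in PMA, 0.50 in SA, 0.58 in OA and 0.12 in PA. Plagl1, an imprinted zinc finger factor, rose by 0.36 ± 0.07 (SE, adjusted p = 0.0105), with 0.39 in PMA, 0.20 in SA, 0.50 in OA and -0.17 in PA, 0.53 below the other acids (adjusted p = 0.000141). The mitotic kinase Mastl rose by 0.35 (adjusted p = 0.0286), with 0.06 in PA. Ddit4, an inhibitor of mTORC1 signalling, rose by 0.33 ± 0.06 (SE, adjusted p = 0.0113), with 0.27 in PMA, 0.40 in SA, 0.30 in OA and 0.08 in PA. Without control replicate 1 Hmgn5 and Ddit4 did not pass (adjusted p = 0.091 and 0.061), nor did Plagl1 and Mastl without control replicate 4 (adjusted p = 0.089 and 0.17).

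The calls in the stress lists made up 5.41% of the integrated stress response genes, 3.33% of the endoplasmic reticulum chaperones and XBP1 targets, 7.69% of the heat shock genes and 7.41% of the hypoxia and energy stress genes, against 1.22% of all genes. After cyclic loess these lists held 2, 1, 3 and 2 falls in that order. Of 37 integrated stress response genes, Ddit4 rose and Ppp1r15a, a phosphatase subunit that reverses the block of translation, fell by 0.19 (adjusted p = 0.0326), with -0.14 in PA. Of 30 endoplasmic reticulum chaperones and XBP1 targets only Sdf2l1, a chaperone cofactor, fell, by 0.25 (adjusted p = 0.0423), with -0.24 in PMA, -0.12 in SA, -0.39 in OA and -0.07 in PA. The chaperone Hspa5 stood at -0.04 (-0.12 to 0.04). Hspe1, a mitochondrial chaperonin subunit, fell by 0.21 as the only one of 13 heat shock genes to pass (adjusted p = 0.04). Ankrd37, a target of hypoxia signalling, changed by -0.36 ± 0.08 (SE, adjusted p = 0.023), with -0.45 in PMA, -0.27 in SA, -0.36 in OA and -0.08 in PA. Without control replicate 4 the calls of Sdf2l1, Hspe1 and Ankrd37 were lost (adjusted p = 0.21, 0.15 and 0.12), as was that of Ppp1r15a without control replicate 1 (adjusted p = 0.12). None of 30 NRF2 targets or 25 p53 targets and cell death genes passed, and after cyclic loess 1 of each fell.

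Sap30, a subunit of the Sin3 histone deacetylase complex, ranged from 6.56 to 6.90 in the 11 acid arrays, from 6.96 to 7.27 in the PA arrays and from 7.15 to 7.52 in the control arrays. The acid arrays lay below every PA and control array. Sap30 changed by -0.51 ± 0.07 (SE, adjusted p = 0.00138), nearly alike at -0.49 in PMA, -0.51 in SA and -0.52 in OA, with -0.18 in PA, and PA lay 0.33 above the other acids (adjusted p = 0.0162).

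Med21, a subunit of the Mediator complex that links transcription factors to RNA polymerase II, ranged from 8.39 to 8.71 in the 11 acid arrays, from 8.68 to 8.92 in the PA arrays and from 8.96 to 9.06 in the control arrays. It changed by -0.40 ± 0.05 (SE, adjusted p = 0.000511), with -0.40 in PMA, -0.34 in SA, -0.45 in OA and -0.18 in PA, without overlap of the acid and control arrays. Rpa3, the smallest member of the RPA trimer that coats single-stranded DNA, changed by -0.44 ± 0.07 (SE, adjusted p = 0.00402), with -0.55 in PMA, -0.38 in SA, -0.40 in OA and -0.33 in PA, and a different probe set of Rpa3 stood at -0.18. Lsm7, a subunit of the Lsm ring that binds U6 RNA and decaying mRNA, changed by -0.39 ± 0.06 (SE, adjusted p = 0.00323), with -0.36 in PMA, -0.32 in SA, -0.50 in OA and -0.26 in PA, and its further probe set stood at -0.43.

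Chchd1, a protein of the mitochondrial ribosome, fell by 0.41 (adjusted p = 0.0129), with -0.13 in PA. Mustn1, a small nuclear protein of muscle and skeletal tissue, fell by 0.36 (adjusted p = 0.0306), with -0.29 in PA. Gm10548, a gene model without an assigned role, changed by -0.41 ± 0.06 (SE, adjusted p = 0.00138), with -0.34 in PA. Without control replicate 4 Chchd1 and Mustn1 missed the threshold (adjusted p = 0.054 and 0.13).

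Of 41 ribosomal protein genes on the list, 3 fell and none rose (7.32%, against 1.22% of all genes), with a median of -0.05, and after cyclic loess 6 fell. Rps24, of the small subunit, ranged from 9.92 to 10.27 in the 11 acid arrays, from 10.13 to 10.51 in the PA arrays and from 10.41 to 10.48 in the control arrays. It changed by -0.34 ± 0.05 (SE, adjusted p = 0.0045), with -0.29 in PMA, -0.28 in SA, -0.45 in OA and -0.07 in PA. Its 3 further probe sets stood between -0.42 and -0.33. The large subunit genes Rpl11 and Rpl35 fell by 0.23 and 0.17 (adjusted p = 0.0161 and 0.0373), with 0.03 and -0.02 in PA, and lost their calls without control replicates 1 and 4 in turn (adjusted p = 0.062 and 0.14). These genes have many near-identical copies in the genome, so the probe sets cannot be assigned to 1 copy with certainty. None of 49 respiratory chain and ATP synthase genes passed, whereas after cyclic loess 2 fell.

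Among the 7 stable genes picked out after their values were seen, Immp1l, a protease subunit of the mitochondrial inner membrane, changed by -0.35 ± 0.05 (SE, adjusted p = 0.00267), with -0.33 in PMA, -0.28 in SA, -0.44 in OA and -0.07 in PA. Sec61g, a subunit of the channel through which proteins enter the endoplasmic reticulum, changed by -0.31, with 0.02 in PA and a PA difference from the other acids at an adjusted p of 0.0021. Naa20, an N-terminal acetyltransferase subunit, also changed by -0.31, with -0.27 in PA. Cnih4, a cargo receptor for membrane proteins, changed by -0.28. Armcx2, an armadillo repeat protein, rose by 0.30 and Arl14ep, a partner of a vesicle GTPase, by 0.28.

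Few genes separated the 3 acids. The moderated F test between PMA, SA and OA passed in 49 genes (0.26%), 1358 had an unadjusted p under 0.05, and 7 of the 230 genes were among the 49. For the other 223 a miss of that threshold does not show that the 3 acids acted alike. On its own against control, PMA gave 50 genes (0.266%), 36 higher (0.191%) and 14 lower (0.0744%), SA 31 (0.165%), 20 higher (0.106%) and 11 lower (0.0584%), and OA 162 (0.861%), 86 higher (0.457%) and 76 lower (0.404%). These comparisons share the 4 control arrays.

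The genes that separated PMA, SA and OA most clearly mostly averaged out in the shared response. BC023105, an uncharacterised transcript, stood at 0.64 in PMA, -0.36 in SA and -0.38 in OA, with -0.42 in PA (F test, adjusted p = 1.14e-06). Abcc4, an exporter of cyclic nucleotides and organic anions, stood at 0.31 in PMA, -0.25 in SA and -0.21 in OA, with -0.04 in PA (adjusted p = 0.000142). Chchd10, a mitochondrial intermembrane protein, stood at 0.35, -0.37 and -0.23 in PMA, SA and OA, with 0.15 in PA (adjusted p = 0.000873). B3galt2, a galactosyltransferase, was at -0.03 in PMA, 0.35 in SA and 0.40 in OA, with 0.03 in PA (adjusted p = 0.000873), and rose in the shared response by 0.24 (adjusted p = 0.0129), a call lost without control replicate 3 (adjusted p = 0.064) and with the 11 acid arrays as 1 group (adjusted p = 0.229). Ccl5, a chemokine for T cells, was apart in another way, at -0.41 in PMA, 0.54 in SA, -0.38 in OA and 0.77 in PA (adjusted p = 0.000873). Of these 5 genes, 4 had SA and OA, both of 18 carbons, on 1 side of control and PMA on the other side or near 0, and Ccl5 had the unsaturated PMA and OA below control and the saturated SA and PA above it.

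PA on its own against control gave 0 genes by limma (0%), with 2900 at an unadjusted p under 0.05. Set directly against the mean of PMA, SA and OA, PA differed in 796 genes (4.23%), higher in 221 (1.17%) and lower in 575 (3.06%). After cyclic loess the excess of lower genes was gone, with 422 of 837 higher and 415 lower. This count was 88 without PA replicate 4, 180 without PA replicate 2, 1530 without PA replicate 3 and 2404 without PA replicate 1. Of the 155 rises, 67 passed this test, each with PA lower than the other acids, and of the 75 falls 30 passed, each with PA higher. The tests share the 11 arrays of PMA, SA and OA, so this direction is partly fixed by the choice of genes.

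Non-overlap gives a count without a test, but it rests on the array scaling as deposited and was not repeated after cyclic loess. The 11 acid arrays and the 4 control arrays did not overlap in 416 of 18820 genes (2.21%), 324 with the acids higher (1.72%) and 92 with the acids lower (0.489%). Among the 230 called genes the arrays did not overlap in 146, of which 101 were rises and 45 falls. The 230 were chosen by the difference between these same arrays, so non-overlap among them is partly fixed by that choice. This also holds where non-overlap is given for a single called gene.

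Promoter sequence of RefSeq (GRCm38.p6, from 250 bases before to 50 after a start) was available for 17 of the 28 genes named by size. Each window was searched on both strands for the CArG box, the NF-kB site, TGACGTCA, TGANTCA, the PPAR direct repeat and TGATGNAA, which 1.63%, 4.51%, 1.79%, 7.81%, 0.04% and 3.97% of all 32851 windows hold. Among the 17, only Med21 held one, TGACGTCA, the palindromic cyclic AMP response element, at position -131 from its start. CACGTG, the E-box that clock proteins bind, was looked for after Ciart was seen among the stable falls: in the 120 bases before the start 3.66% of windows hold it, 13 windows (0.04%) hold at least 3, and Ciart holds 3. Outside the 28, the stable rise Arl14ep held TGANTCA in one window and TGATGNAA in another, and the stable rise Stat5a held an NF-kB site. The sequences shown are those of the stable falls with a match, with the matches in capitals.
Med21, chr6:146642418-146642485, plus strand: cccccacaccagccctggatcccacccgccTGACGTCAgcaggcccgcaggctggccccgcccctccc
Ciart, chr3:95882229-95882348, minus strand: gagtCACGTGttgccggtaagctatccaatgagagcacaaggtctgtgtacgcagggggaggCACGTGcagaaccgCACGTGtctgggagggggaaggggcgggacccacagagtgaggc
A match is a run of letters and not a measured binding site, and no array value bears on whether a factor was bound there.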

How the data were processed

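Each array, an Affymetrix whole-transcript mouse gene chip, took 100 ng of total RNA whose integrity number exceeded 9, per the labels' protocols. The deposited values are log2 expression of 35556 probe sets, which the authors normalised with RMA, the submitters' processing notes naming affy 1.34.0 and R 2.15.0. Scan files were not used here. Array values ranged from 1.97 to 13.29, and arrays correlated at 0.988 to 0.9975. The number of arrays limits the precision.

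The platform annotation gave 1 symbol for 21218 probe sets, several for 1881 and none for 12457. A gene took its probe set with the highest mean, which left 18820 genes. A limma model (limma 3.58.1, R 4.3.3) took all 19 arrays and gave each group its own mean, with Benjamini-Hochberg adjustment over all genes and a threshold of 0.05. In 5 simulated sets, 34% of changes of 0.2, 76.8% of 0.3 and 97.6% of 0.5 on the log2 scale were recovered. Of the calls in these sets, 4.815% were false. These rates describe the simulated sets only. Whether they hold for the real arrays was not tested, and leaving out 1 real array gave from 32 to 458 genes in the shared response.

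Named genes were the called genes with the biggest changes of 1 sign in PMA, SA and OA (14 rises and 14 falls), up to 4 called members of each of 41 lists (or, without a call, up to 2 by value only), a panel of 26 lipid and stress genes (25 measured), and the 6 genes leading each of the F test and the comparison of PA with the other acids. The members and lists were chosen with earlier results of these data known. Probe coordinates were not used. Alternatives covered the scaling, a filter on dim genes, the spread model, the samples fitted, a replicate block and each array left out.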

Additional observations from a re-analysis of the deposited data

Results flagged for a closer look

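In 14 named genes PMA, SA and OA differed from each other by the moderated F test. BC023105 (adjusted p = 1.14e-06), Abcc4 (0.000142), Lcn2 (0.000782), B3galt2, Ccl5 and Chchd10 (0.000873 each), Fmod (0.0434), Ccl7 (0.0204) and Mmp11 (0.0135) are described in the report. The remaining 5 did not pass in the shared response. Scd3, a stearoyl-CoA desaturase, stood at 0.07 in PMA, -0.41 in SA and -0.28 in OA (adjusted p = 0.00387). Trib3, a pseudokinase of the stress response, stood at 0.17, -0.18 and -0.24 (adjusted p = 0.0113). The adipocyte hormone leptin (Lep) stood at -0.17, 0.17 and 0.18 (adjusted p = 0.0135). The prostaglandin receptor Ptgfr stood at -0.00, 0.25 and 0.20 (adjusted p = 0.036), and the muscle-type cytochrome oxidase subunit Cox6a2 at -0.01, -0.43 and -0.41 (adjusted p = 0.0488), in PMA, SA and OA throughout. All 5 had SA and OA on the same side of PMA. The part of PMA replicates 1 and 4 in these 5, without which the F test passed in 8 genes, was not tested.

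A sample far from the other 3 of its group was found 19 times in 480 groups of 4 arrays (120 genes), or 3.96%, and chance alone flags about 1 in 20. In PMA these were P4ha3 in replicate 1 (7.53), Scarna13 and Mastl in replicate 2 (8.33 and 5.70), Scd3 in replicate 3 (9.24) and Cebpa in replicate 4 (10.11). In SA they were Asah2 in replicate 1 (9.16), Fmod and Mylip in replicate 2 (6.61 and 9.49), Itgax in replicate 3 (4.45) and Srebf1 in replicate 4 (8.37). In PA they were Adamts12 in replicate 1 (9.38), Klf9, Agt and Col1a1 in replicate 2 (8.61, 8.56 and 11.38) and Cox6a2 in replicate 4 (7.18). In control cells they were Cidea in replicate 1 (5.67), Adamts5 and Zfp521 in replicate 2 (9.51 and 7.81) and Spry2 in replicate 3 (7.93). Of the called rises with an acid array apart, P4ha3, Scarna13, Mastl and Fmod had it on the high side and Asah2 on the low side.

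Among the 14338 probe sets without a single gene symbol, which no count above uses, 149 passed when every probe set was tested, 52 higher and 97 lower with the acids.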

How the results depend on the processing

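Against 230 genes, the shared response gave 485 without the dimmest genes (lowest mean expression), 541 with a trended robust spread, 349 after cyclic loess (105 higher and 244 lower), 388 from the 15 arrays without PA, 1184 with array weights, 368 over every probe set, 40 without OA, 105 without PMA replicates 1 and 4, and 459 without PA replicates 2 and 4. Leaving out 1 array gave 32 to 458. The F test count of 49 became 126 with array weights, 20 over every probe set, 8 without PMA replicates 1 and 4, and 14 to 54 with 1 array left out, moved by PMA replicate 1 (17), 3 (21) or 4 (14), SA replicate 3 (32) and OA replicate 3 (32). The comparison of PA with the other acids gave 1242 with a trended robust spread, 381 with array weights, 517 over every probe set, 52 without PA replicates 2 and 4, and 88 to 2404 with 1 array left out, moved by OA replicate 3 (423), SA replicate 1 (446) and PMA replicate 4 (492) beside the PA arrays. The 41 list members passing became 70 without the dimmest genes, 81 with a trended robust spread, 126 with array weights, 12 without OA, 22 without PMA replicates 1 and 4, 66 without PA replicates 2 and 4, and 10 to 65 with 1 array left out, moved by control replicates 4 (10), 1 (11), 3 (12) and 2 (25), OA replicates 1 (21) and 3 (24), SA replicate 1 (24) and PA replicate 2 (65). Added after seeing the data were, for the shared response and the lists, leaving out single PA arrays, and for the F test and the comparison of PA, every probe set, the mean of a gene's probe sets, both pairs of arrays, and single arrays of the groups not compared by the F test or of the groups other than PA. The causes were not tested.

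Same-numbered arrays deviated together in 6 of 36 pairs (correlation over 0.1, range -0.43 to 0.40), and 4 of 19 arrays correlated best with their own number, so the numbers were not taken as pairing. With a replicate block the counts were 120 for the shared response (118 of them among the 230), 466 for PA against the other acids and 22 for the list members. In the simulated sets, changes of 0.2 were at the limit of what this number of arrays detects.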

Other observations

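Genes for axon guidance cues and their receptors, a group assembled after the values were seen, held 8 rises and no fall among 70 measured (11.4%, against 1.22% of all genes), with a median of 0.07 against 0.03. They encode secreted and membrane signals that steer axons and also act on vessels and connective tissue. Slit2 rose by 0.27 (adjusted p = 0.00725), with 0.21 in PMA, 0.28 in SA, 0.31 in OA and -0.08 in PA. Sema3f rose by 0.26 and Efnb2 by 0.27, with 0.08 and -0.01 in PA, and both kept the 11 acid arrays above all 4 control arrays. Sema3c, Sema4g, Rgma, Plxnb2 and Slit3 made up the rest, at 0.24, 0.22, 0.21, 0.20 and 0.19 (limma, adjusted p = 0.0129, 0.0481, 0.0417, 0.0471 and 0.0496). None of the 8 was among the 21 genes that passed whichever array was left out. Because the group was chosen from the calls, its count is a description.

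The circadian clock gene Ciart, a transcriptional repressor, averaged 8.47 with the acids and 8.78 in control cells, a change of -0.31 ± 0.05 (SE, limma adjusted p = 0.00725), with -0.28 in PMA, -0.27 in SA, -0.38 in OA and -0.02 in PA. Ciart was the only one of 16 measured clock genes to pass, where 1.22% of all genes passed. The clock genes were looked at after Ciart was seen among the calls. The other 15 stood between -0.15 and 0.17, with Per1 at 0.07, Per2 at 0.08, Per3 at 0.11 and Nr1d2 at 0.09.

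Among 74 mitochondrial ribosomal protein genes 3 fell and none rose (4.05%, against 1.22% of all genes), Mrpl21 by 0.30, Mrpl41 by 0.29 and Mrpl48 by 0.20, and among 24 genes of mitochondrial protein import 2 fell and none rose (8.33%), Tomm20 by 0.28 and Tomm7 by 0.27. These classes too were formed after the values were seen. In PA, Mrpl21, Mrpl41 and Mrpl48 stood at -0.09, -0.07 and -0.18, and Tomm20 and Tomm7 at -0.18 and -0.05. Their adjusted p values in the shared response (limma) were 0.0143, 0.0479, 0.0496, 0.0167 and 0.0432 in that order. None was among the 21 genes that passed whichever array was left out.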
